A study of Mus with 21 samples.

Results

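Chromatin remodelling complexes use the energy of ATP to slide, eject or exchange nucleosomes. RNA levels of 58 genes that encode such remodellers, or subunits of them, were compared in the brains of mouse embryos that were heterozygous for *Nipbl*, for *Wapl* or for both. The genes were chosen by name from the 55335 rows of the table of counts, and each matched 1 row. They fall into 6 CHD genes, 12 NuRD genes (which include the CHD ATPases of that complex), 26 BAF genes, 7 ISWI genes, 3 INO80-family genes and 4 other SNF2-type ATPases. All 58 passed the filter on low counts that left 30552 genes to be tested. Their mean normalized counts in *WT* brains ran from 237 for *Baz1a* to 30391 for *Chd3*, so each had a mean of at least 200. No transcript lengths were used, and levels are therefore compared between groups and not between genes.

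Cohesin is a ring-shaped complex that folds chromosomes into loops. NIPBL is needed for its loading, and WAPL for its release. Remodellers are recruited to promoters and enhancers, where they open chromatin (BAF), close it together with histone deacetylases (NuRD), space nucleosomes (ISWI) or exchange histone variants (the INO80 family). Heterozygous variants in many of these genes cause neurodevelopmental disorders in humans, among them *CHD7*, *CHD8*, *CHD4*, *ARID1A*, *SMARCA4* and *SRCAP*. During brain development the BAF complex changes its composition. Neural progenitors use the subunits ACTL6A, PHF10, DPF2 and SS18, and neurons replace them with ACTL6B, DPF1, DPF3 and SS18L1.

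Whole brains of female embryos at E17.5 were collected, and their poly(A) RNA was sequenced. The 21 libraries used here leave out a further *Nipbl* +/− library, which the authors removed because it gave too few reads. There were 5 *WT* embryos (*Wapl* +/+; *Nipbl* +/+), 3 *Nipbl* +/− embryos (given as *Nipbl* +/delta in the labels, with *Wapl* +/+), 7 *Wapl* Δ/+ embryos (with *Nipbl* +/+) and 6 double heterozygotes (*Wapl* Δ/+; *Nipbl* +/−). In the *Wapl* Δ allele the promoter and the first exons were removed by a germline *E2a-Cre* deletion, whereas the *Nipbl* null allele came from sires in which a floxed allele was recombined by *Stra8-icre* in premeiotic germ cells, so the mutations were present in every tissue of the embryo. Litters of the embryos are not given in the labels, so the replicate spread may include litter.

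Libraries held from 25682566 to 35818767 counts (median 31830396), of which the 58 genes took 0.801% to 0.920%. *Nipbl* had 2019 to 2402 normalized counts in *WT*, 1104 to 1287 in *Nipbl* +/−, 1956 to 2243 in *Wapl* Δ/+ and 1135 to 1244 in double-heterozygote libraries. *Nipbl* RNA was lower in *Nipbl* +/− brains (log2 fold change -0.89 ± 0.059 (SE), adjusted P = 1.95e-07) and in double heterozygotes (-0.86 ± 0.043 (SE), adjusted P = 4.7e-10). *Wapl* had 1389 to 1606 in *WT*, 1319.9 to 1469.7 in *Nipbl* +/−, 590.4 to 755 in *Wapl* Δ/+ and 704 to 774.5 in double-heterozygote libraries. *Wapl* RNA was lower in *Wapl* Δ/+ brains (-1.09 ± 0.056 (SE), adjusted P = 4.08e-10) and in double heterozygotes (-1.01 ± 0.041 (SE), adjusted P = 2.16e-11). The libraries also fell into 2 sets that cut across genotypes. The mitochondrial transcript *mt-Nd3* had 0 to 6 counts in 12 libraries and 52 to 106 counts in the other 9. No *Nipbl* +/− library was in the high set, which was made up of 2 *WT* libraries (replicates 4 and 5), 5 *Wapl* Δ/+ libraries (replicates 3 to 7) and 2 double heterozygotes (replicates 5 and 6). Among embryos with the *Wapl* Δ allele, the high libraries were those whose labels write the allele second (+/delta), and the low libraries those that write it first.

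Reduced *Nipbl* dosage was accompanied by small increases of many BAF and NuRD genes. Of the 58 genes, 22 (37.9%) passed an adjusted P of 0.10 in *Nipbl* +/− against *WT* brains, where 11.2% of all tested genes did (edgeR quasi-likelihood test with Benjamini-Hochberg adjustment over all tested genes). Higher in the mutant were 20 of the 58 (34.5%) and lower were 2 (3.45%). Among all tested genes 4.25% were higher and 6.96% lower, and among the 12794 genes whose mean reached 200 normalized counts 8.75% were higher and 13.1% lower. All 3 *Nipbl* +/− libraries lay above all 5 *WT* libraries for 15 of the 58 genes, against 6.54% of all tested genes. That share includes genes of lower count than the 58, and it was not computed for genes with a mean of at least 200. The shift was uneven between embryos. In *Nipbl* +/− replicates 1, 2 and 3, 38, 30 and 46 of the 58 genes lay above the *WT* mean. The median log2 differences were 0.091, 0.0076 and 0.099, and those of the BAF genes 0.14, 0.026 and 0.11. In single *WT* libraries, from 13 to 43 of the 58 genes lay above that mean. The fold changes were small, between -0.18 and 0.20 on the log2 scale, with a median of 0.055 for the 58 genes and -0.0086 for all tested genes. The median stayed positive, and no call changed sign, under the 2 other scalings tried.

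**Figure D1:**
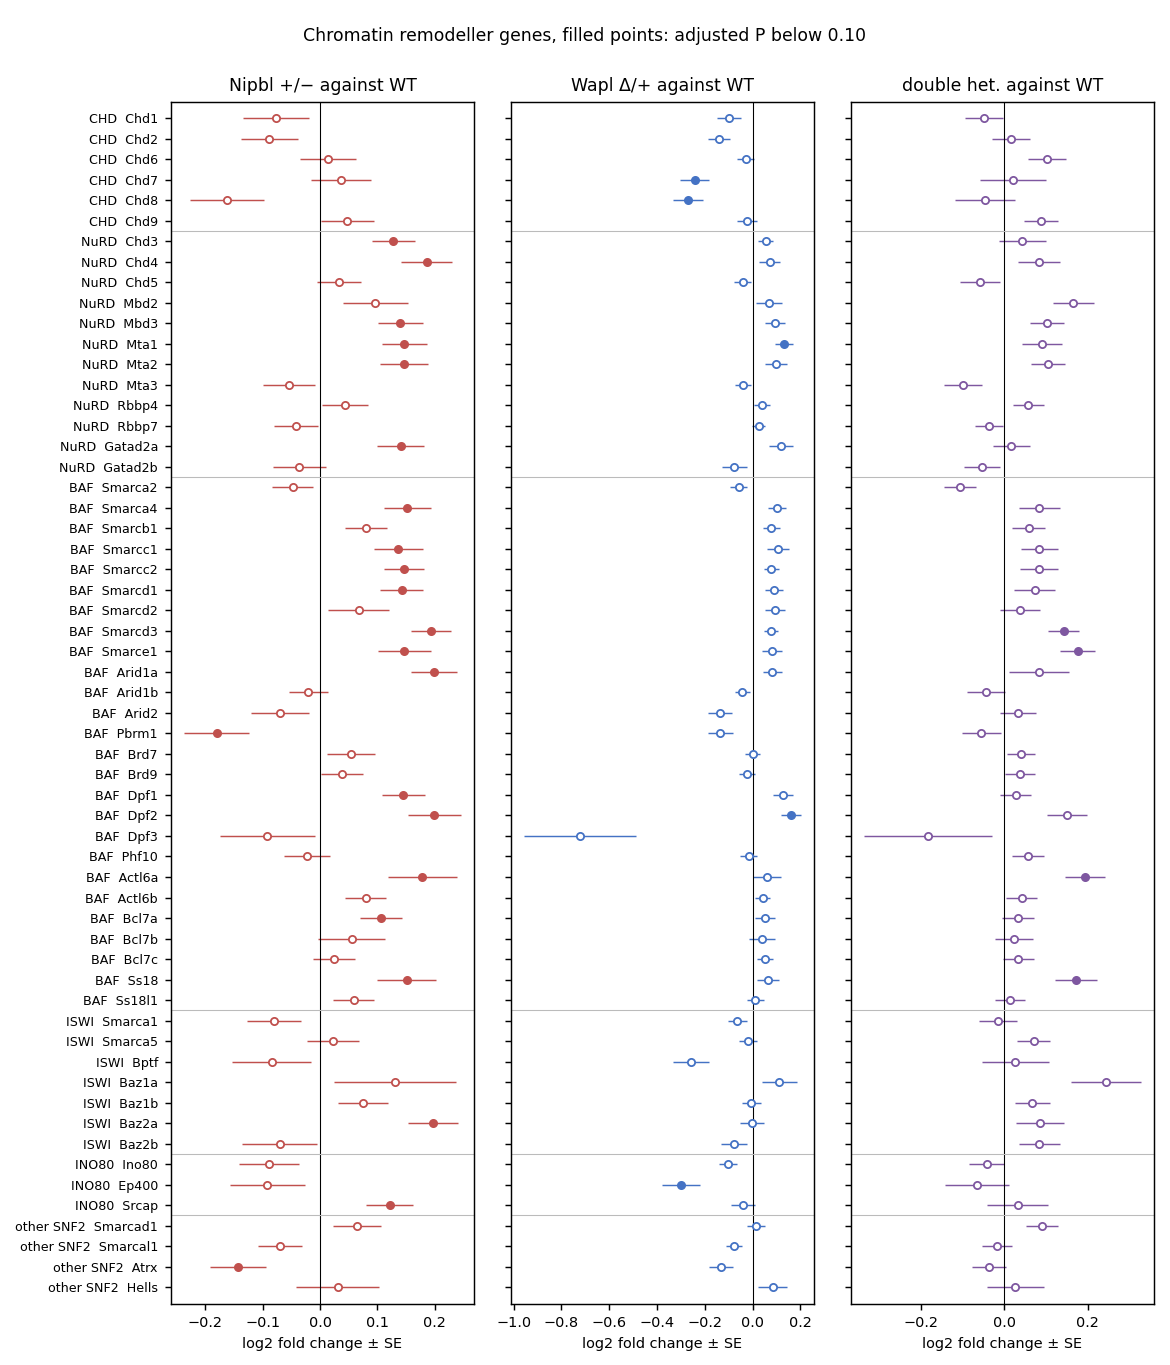
Log2 fold change (x axis, error bars ± SE) of each of the 58 genes (y axis, by complex) in *Nipbl* +/− (3 embryos), *Wapl* Δ/+ (7) and double-heterozygote brains (6) against the same 5 *WT* embryos, with filled points for an adjusted P below 0.10. Each panel has its own x axis. Filled points lie to the right of 0 for 20 genes in the first panel, 2 in the second and 4 in the third.

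The NuRD complex couples nucleosome remodelling to histone deacetylation. Of its 12 genes, 6 were higher in *Nipbl* +/− brains (*Chd3*, *Chd4*, *Mbd3*, *Mta1*, *Mta2* and *Gatad2a*) and none was lower, with a median log2 fold change of 0.11. *Chd4*, the main ATPase of the complex, had 11422, 11167, 11246, 10804 and 11592 normalized counts in *WT* brains and 13459, 11649 and 13431 in *Nipbl* +/− brains. The groups did not overlap, but *Nipbl* +/− replicate 2 lay just above the highest *WT* library. The log2 fold change of *Chd4* was 0.19 ± 0.044 (SE), adjusted P = 0.0134. *Mta1*, a scaffold subunit, had 3708, 3568, 3918, 3662 and 3849 in *WT* and 4173, 4049 and 4258 in *Nipbl* +/− brains. Again every mutant library was above every *WT* library (log2 fold change 0.15 ± 0.039 (SE), adjusted P = 0.0242). The 6 NuRD genes that did not pass were *Chd5*, *Mbd2*, *Mta3*, *Rbbp4*, *Rbbp7* and *Gatad2b*, with log2 fold changes from -0.054 (*Mta3*) to 0.10 (*Mbd2*). *Gatad2b*, the paralogue of *Gatad2a*, had -0.036.

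In the BAF complex, 12 of 26 genes were higher and 1 was lower in *Nipbl* +/− brains (median log2 fold change 0.08). The ATPase *Smarca4* rose (0.15, adjusted P = 0.0291), as did the scaffold subunits *Smarcc1* (0.14, adjusted P = 0.061) and *Smarcc2* (0.15, adjusted P = 0.0158), the bridging subunits *Smarcd1* (0.14, adjusted P = 0.0261) and *Smarcd3* (0.19, adjusted P = 0.00203), *Smarce1* (0.15, adjusted P = 0.0625) and *Bcl7a* (0.11, adjusted P = 0.0845). *Smarca2*, which encodes the alternative ATPase, had -0.048 and did not pass.

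*Arid1a* encodes a DNA-binding subunit of the canonical complex. Its normalized counts were 10696, 10212, 11104, 10384 and 11074 in *WT* and 12125, 11840.4 and 13006 in *Nipbl* +/− brains, without overlap. The log2 fold change was 0.20 ± 0.04 (SE), adjusted P = 0.0049, while its paralogue *Arid1b* had -0.021 (adjusted P = 0.812). The strongest call of the 58 was *Smarcd3*, a subunit of neural and cardiac BAF complexes. It had 4786, 4880.1, 4874, 4839 and 4957 in *WT* and 5808, 5445 and 5515 in *Nipbl* +/− brains, a narrow *WT* range with all mutant libraries above it. *Pbrm1*, which marks the variant PBAF complex, was 1 of the 2 genes that fell, and it is named here after its values were seen. Its counts were 3412, 3304, 2958, 2793 and 3119 in *WT* and 2632, 2702 and 2953 in *Nipbl* +/− brains. The groups overlapped, since *Nipbl* +/− replicate 3 lay above the lowest *WT* library (log2 fold change -0.18 ± 0.056 (SE), adjusted P = 0.0572). *Arid2* (-0.07), *Brd7* (0.054) and *Phf10* (-0.022), which also encode PBAF subunits, did not pass.

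Outside NuRD and BAF, 1 of 7 ISWI genes and 1 of 3 INO80-family genes were higher, and 1 of the 4 other ATPases was lower. *Baz2a*, the partner of SMARCA5 in the nucleolar remodelling complex, had 3575, 3308, 3388, 3325 and 3701 in *WT* and 3949, 3794 and 4204 in *Nipbl* +/− brains. No *Nipbl* +/− library fell into the *WT* range (log2 fold change 0.20 ± 0.044 (SE), adjusted P = 0.00872). *Srcap*, which deposits the histone variant H2A.Z, had 8213, 7975, 8355, 8221 and 8646 in *WT* and 8906, 8569 and 9673 in *Nipbl* +/− brains. Here *Nipbl* +/− replicate 2 lay below the highest *WT* library, and the log2 fold change was 0.12 ± 0.041 (SE), adjusted P = 0.0832. *Atrx*, a heterochromatin remodeller, had 7485, 6923, 6532, 6448 and 6635 in *WT* and 5734, 6324 and 6505 in *Nipbl* +/− brains. Its highest mutant library fell inside the *WT* range, and it was lower with a log2 fold change of -0.14 ± 0.049 (SE), adjusted P = 0.091. It no longer passed under either other scaling or with DESeq2. None of the 6 CHD genes passed. Their values ran from -0.16 (*Chd8*, adjusted P = 0.148) to 0.048 (*Chd9*).

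The genes that rose in *Nipbl* +/− brains had a shorter median genomic span than those not called. In the GRCm38.p6 annotation, the 58 genes spanned a median of 55.2 kb from first to last base, and 15 of the 20 that rose lay below that median. Medians were 31.6 kb for those that rose and 68.9 kb for those not called. Across the 58 genes, Spearman's rho between span and log2 fold change was -0.525. Across the 12032 genes with a mean of at least 200 and a known span it was -0.323, in the same direction. Members with a span below the median had a median log2 fold change of 0.11, and those at or above it had -0.048. The same rho over the 58 genes was -0.579 in *Wapl* Δ/+ brains (-0.396 across the 12032 genes) and -0.333 in double-heterozygote brains (-0.315), comparisons that share the *WT* libraries. The points share libraries and are not independent, and rho is given as a description.

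Marker genes of several cell types moved in the same comparison. Of 10 astrocyte and oligodendrocyte markers, 8 were lower in *Nipbl* +/− brains, and their summed normalized counts ran from 13616 to 17017 against 18868 to 20099 in *WT*. Of 12 neuron markers 4 were lower (sums of 208959 to 220964 against 224154 to 234605). The progenitor markers *Sox2*, *Nes* and *Eomes* were higher and *Fabp7* was lower among 12, with overlapping sums (32287 to 39126 against 34931 to 36266). Of the blood and microglia markers, 4 of 9 were lower (sums of 12062 to 22593 against 15190.4 to 24436), and of the meninges and vessel markers 1 of 7 was lower (sums of 15072 to 23440.0 against 15758 to 19958). No choroid plexus or pituitary marker passed among 7 (sums of 15334 to 18976 against 11576 to 24841). No marker was at 0 in all libraries of either group, and the part of these shifts in the remodeller result was not tested. In whole-brain RNA, fewer cells of a type and less RNA per cell cannot be told apart.

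The number of calls depended on single libraries and on the fit. Without *Nipbl* +/− replicate 1 it was 9 (5.98% of all genes), and without each of the other 7 libraries it was between 15 and 22 (8.18% to 15.7%). With the 3 *WT* libraries of low *mt-Nd3*, which matches the *Nipbl* +/− group, 7 genes passed (*Chd4*, *Mbd3*, *Smarcd3*, *Arid1a*, *Dpf2* and *Baz2a* higher, *Pbrm1* lower), where 6.16% of all genes did.

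Reduced *Wapl* dosage gave fewer calls, and the ones with the largest changes were decreases of CHD and INO80-family ATPases. In *Wapl* Δ/+ against *WT* brains, 5 of the 58 genes passed, where 2.22% of all tested genes did. *Mta1* and *Dpf2* were higher (0.769% of all genes were) and *Chd7*, *Chd8* and *Ep400* were lower (1.45% of all genes were). In the set of 12794 genes whose normalized mean reached 200, which holds all 58, these shares were larger, at 1.69% higher and 2.34% lower. An unadjusted P below 0.05 was reached by 24 of the 58, against 15.6% of all genes, a share not computed for the 12794. The median log2 fold change of the 58 genes was 0.014, and that of all genes was -0.0034.

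*Chd8*, a remodeller linked to autism, had 5883, 6097, 5228, 5489 and 5880.5 normalized counts in *WT* brains and ran from 4325 to 6023 (median 4544) in *Wapl* Δ/+ brains. The range hides a split, since *Wapl* Δ/+ replicate 2 had 6023 and the other 6 libraries lay between 4325 and 4669, all below the lowest *WT* library. Its log2 fold change was -0.27 ± 0.062 (SE), adjusted P = 0.0503. *Ep400*, the ATPase of the TIP60 complex, had 6203, 6123, 5438, 5939 and 6385 in *WT* and ran from 4238 to 6647 (median 4596) in *Wapl* Δ/+ brains. The same library stood apart, with 6647 against 4238 to 5077 in the other 6 (log2 fold change -0.30 ± 0.08 (SE), adjusted P = 0.0764). *Chd7*, which is mutated in CHARGE syndrome, had 2437, 2422, 2279.5, 2303 and 2529 in *WT* and ran from 1689.8 to 2406 (median 1965) in *Wapl* Δ/+ brains. Replicate 2 was again the highest and the only one inside the *WT* range (log2 fold change -0.24 ± 0.061 (SE), adjusted P = 0.065).

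The 2 genes that were higher changed less. *Mta1* ran from 3865 to 4358 (median 4094) in *Wapl* Δ/+ brains, and *WT* libraries ended at 3918, and replicates 6 and 7 of the mutant group lay below that (log2 fold change 0.13 ± 0.037 (SE), adjusted P = 0.0957). *Dpf2*, a zinc finger subunit of BAF that binds modified histone tails, had 2440.3, 2444, 2376, 2362 and 2677 in *WT* and ran from 2570.2 to 2937 (median 2814) in *Wapl* Δ/+ brains. Only *WT* replicate 5 lay inside the mutant range (log2 fold change 0.16 ± 0.042 (SE), adjusted P = 0.0746). Side by side, with the *WT* libraries shared, the log2 fold changes in *Nipbl* +/− and *Wapl* Δ/+ brains were 0.15 and 0.13 for *Mta1*, 0.20 and 0.16 for *Dpf2*, 0.036 and -0.24 for *Chd7*, -0.16 and -0.27 for *Chd8*, and -0.092 and -0.30 for *Ep400*.

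**Figure D2:**
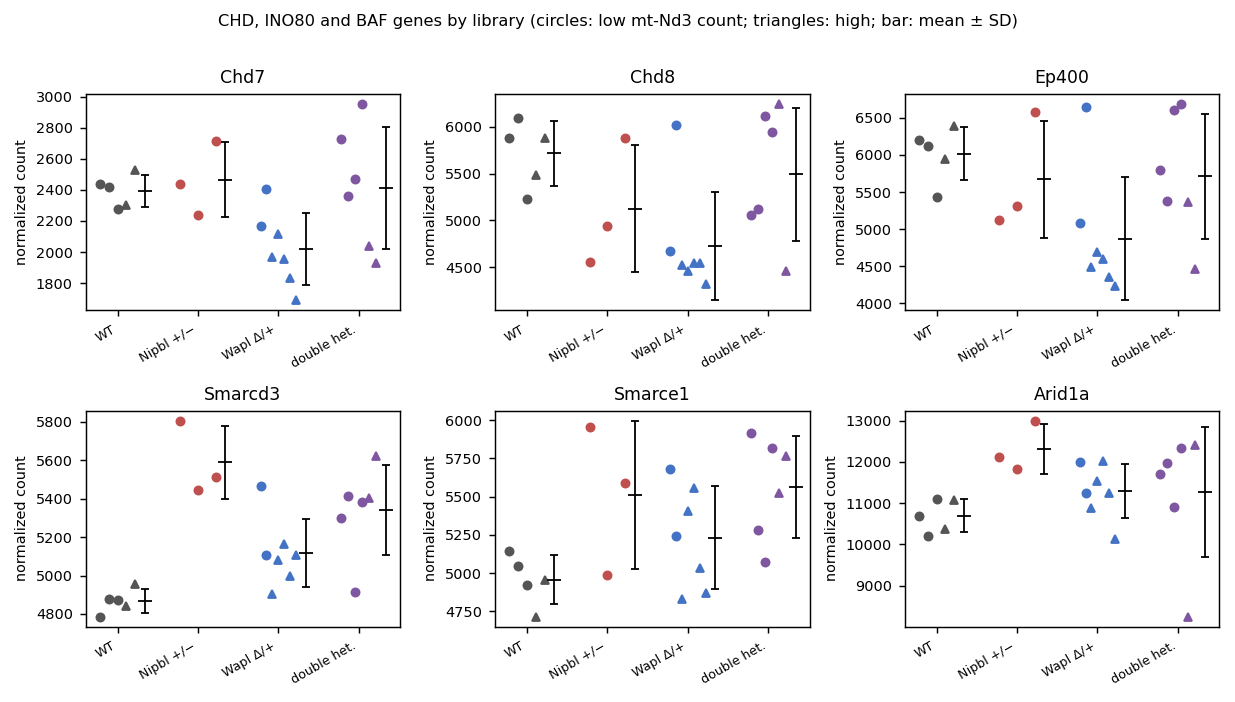
Normalized counts (y axes, not starting at 0) of *Chd7*, *Chd8*, *Ep400*, *Smarcd3*, *Smarce1* and *Arid1a* in each of the 21 libraries by genotype (x axes), with circles for low and triangles for high *mt-Nd3* libraries and bars for the mean ± SD. For *Chd8* and *Ep400*, 6 of the 7 *Wapl* Δ/+ libraries lie below all *WT* libraries, and for *Arid1a* double-heterozygote replicate 5 lies at 8244, below every other library.

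The decreases were then read within each *mt-Nd3* set. Within the high libraries (5 *Wapl* Δ/+ and 2 *WT*) the log2 fold changes were -0.34 for *Chd7* (adjusted P = 0.0436), -0.34 for *Chd8* (adjusted P = 0.000795) and -0.46 for *Ep400* (adjusted P = 0.000242). There 5 members passed, all lower, against 0.910% of all genes; *Bptf*, a subunit of the ISWI complex NURF, and *Dpf3* were the other two. Within the low libraries (2 *Wapl* Δ/+ and 3 *WT*) they were -0.054, -0.099 and -0.012, and no member passed by edgeR (20 at an unadjusted P below 0.05), where 0.154% of all genes did. The difference between the sets was not tested. These 2 low *Wapl* Δ/+ libraries are replicates 1 and 2, which differed from each other in all 3 genes, and the part of the library set in the decreases was not tested. *Chd8* lies on chromosome 14 at 52198151 to 52258042 (GRCm38.p6) and is on the chromosome of *Wapl*, as is *Pbrm1*, which lies 3.65 Mb from *Wapl*.

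The *Wapl* Δ/+ calls rested on few libraries. Leaving out *WT* replicate 1 or 2 left 0 calls (0.0426% and 0.0295% of all genes passed). Leaving out *WT* replicate 4 or 5 or *Wapl* Δ/+ replicate 5 left 1 (0.805%, 0.324% and 0.864%). Without *Wapl* Δ/+ replicate 4 there were 2 (0.789%), and without *Wapl* Δ/+ replicate 1 there were 3 (1.45%). In the main fit 2.22% of all genes passed, so calls fell across all genes in these fits. Without *Wapl* Δ/+ replicate 2 there were 11, of which 8 were lower, where 5.02% of all genes passed. Among markers, 2 of 7 meninges and vessel genes were higher (sums of 16520.4 to 27604 against 15758 to 19958 in *WT*), 1 of 7 choroid plexus and pituitary genes was lower (*Gh*, at 0 in all *Wapl* Δ/+ libraries, with list sums of 17186 to 28403 against 11576 to 24841), and none of the other lists had a call. Lists without a call still moved. An unadjusted P below 0.05 was reached by 7 of 12 progenitor markers (11 positive, median log2 fold change 0.12). The same level was reached by 5 of 10 astrocyte and oligodendrocyte markers (1 positive, median -0.13), 1 of 12 neuron and 1 of 9 blood and microglia markers. Among all tested genes the share was 15.6%. The part of these markers in the result was not tested.

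In double heterozygotes the calls were BAF subunits, with a NuRD gene just outside the threshold. Against *WT*, 4 genes passed, where 3.28% of all genes did. All 4 were higher (0.812% of all genes were), while none was lower (2.46% of all genes were). In the set of 12794 genes whose normalized mean reached 200, 1.43% were higher and 4.89% lower. An unadjusted P below 0.05 was reached by 14 of the 58 (13.5% of all genes). *Mbd2*, the methyl-CpG-binding subunit of NuRD, named after its values were seen, had 0.17 with an adjusted P of 0.101 in edgeR. It also passed with DESeq2, with upper-quartile scaling and with the CPM filter. The median log2 fold change was 0.039 for the 58 genes and 0.0007 for all genes.

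*Smarce1*, a core subunit with an HMG domain, had 5142, 5044, 4924, 4715 and 4955 in *WT* and ran from 5071 to 5914 (median 5647) in double heterozygotes. Replicate 3 was the single mutant library within the *WT* range (log2 fold change 0.18 ± 0.042 (SE), adjusted P = 0.0378). *Smarcd3* ran from 4914 to 5622 (median 5395) in double heterozygotes, and again replicate 3 alone overlapped with *WT* (log2 fold change 0.14 ± 0.037 (SE), adjusted P = 0.0537). In *Nipbl* +/−, *Wapl* Δ/+ and double-heterozygote brains the log2 fold changes were 0.15, 0.082 and 0.18 for *Smarce1* and 0.19, 0.076 and 0.14 for *Smarcd3*, all against the same *WT* libraries. The other two genes, *Actl6a* and *Ss18*, are progenitor subunits and are described with them.

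Double-heterozygote replicate 5 held the lowest level of all 21 libraries for 16 of the 58 genes, while replicate 4 held the highest for 11. *Wapl* Δ/+ replicate 7 was lowest for 13 genes. Its median log2 difference from the *WT* mean was -0.068, against -0.052 in double-heterozygote replicate 5. The same counts over all tested genes were not made. *Arid1a* had 8244 in replicate 5 and 10914 to 12415 in the other 5 libraries, and *Srcap* had 6100.5 against 8329 to 9422. Without replicate 5, 13 genes passed, all higher, where 8.20% of all genes did. Leaving out *WT* replicate 4 left 0 calls (1.49% of all genes). The count was 1 without *WT* replicate 1 or 5 or double-heterozygote replicate 1 (where it was *Mbd2*) or 4 (1.58% to 2.30% of all genes). It was 2 without *WT* replicate 2 or 3 or double-heterozygote replicate 2 or 6 (2.07% to 2.90% of all genes). Within the low *mt-Nd3* libraries 3 genes passed (*Dpf2*, *Ss18* and *Baz2a*, named after their values were seen), all higher, where 2.20% of all genes passed, and within the high libraries (2 against 2) none did by edgeR (5 at an unadjusted P below 0.05), where 0.00327% of all genes passed. Of the astrocyte and oligodendrocyte markers 9 of 10 were lower in double heterozygotes (sums of 14116 to 17366), of neuron markers 1 of 12 (214358 to 240471) and of blood and microglia markers 2 of 9 (12418 to 21882.5). No other marker list had a call. Their part was not tested.

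**Figure D3:**
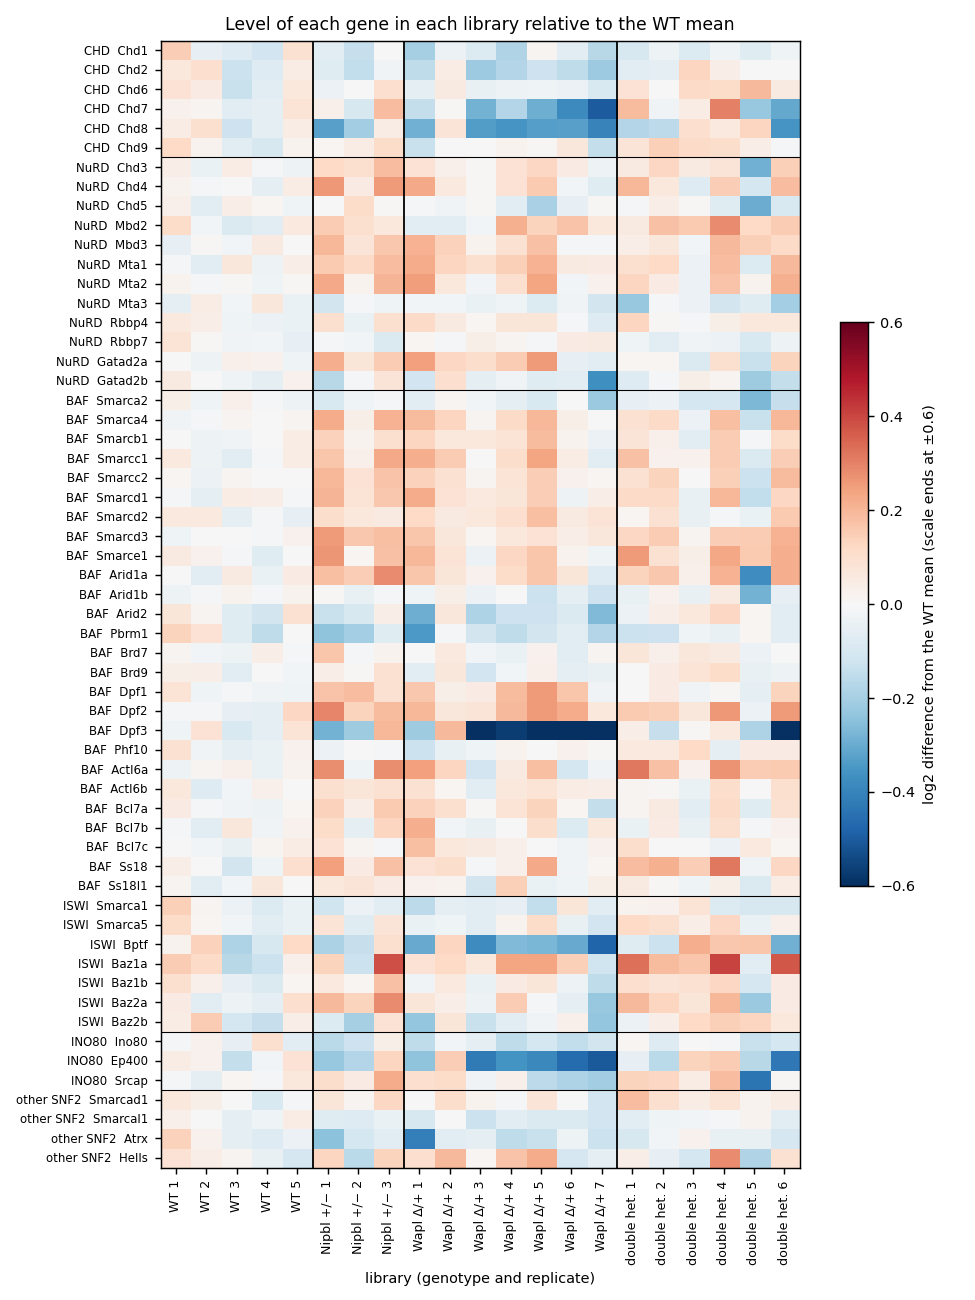
Level of each of the 58 genes (y axis, by complex) in each library (x axis, by genotype and replicate) as the log2 difference from the *WT* mean, with red for higher and blue for lower. The scale ends at ±0.6, which the lowest *Dpf3* libraries pass. *Chd7*, *Chd8*, *Ep400* and *Dpf3* are blue in most *Wapl* Δ/+ libraries but not in replicate 2. Double-heterozygote replicate 5 holds the lowest level of 16 genes, and *Wapl* Δ/+ replicate 7 that of 13.

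The mutant groups were also compared with each other. Between double heterozygotes and *Nipbl* +/− brains no member passed, and 0.00655% of all genes did, which is 2 genes. An unadjusted P below 0.05 was reached by 4 members (4.12% of all genes), and DESeq2 called none (0.0164% of all genes). Between double heterozygotes and *Wapl* Δ/+ brains edgeR called no member (1.02% of all genes passed), 13 reached an unadjusted P below 0.05 (9.94% of all genes), and DESeq2 called 2, *Chd2* and *Chd6*, where it called 1.64% of all genes. Both were higher in double heterozygotes, with log2 differences of 0.16 (adjusted P = 0.141 in edgeR) and 0.13 (adjusted P = 0.126). The log2 difference was positive for 38 of the 58 genes in this comparison, among them all 6 CHD genes, from 0.05 (*Chd1*) to 0.26 (*Chd7*), all 7 ISWI genes and all 3 INO80-family genes. It was positive for 13 of the 26 BAF genes and 6 of the 12 NuRD genes. Without *Wapl* Δ/+ replicate 2, 7 members passed (1.46% of all genes), and 1 passed without double-heterozygote replicate 2 (0.697% of all genes) or 6 (1.04%).

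The interaction asks whether the effect of both mutations together differed from the sum of the single effects on the log2 scale. It passed for no member, and 0% of all genes passed, by edgeR, while DESeq2 called 0 members (0.0589% of all genes). An unadjusted P below 0.05 was reached by 25 of the 58 (43.1%), against 13.8% of all genes. All genes include many of lower count than the 58, and the share among genes of similar count was not computed. Of these 25, 18 were negative, that is, the double heterozygotes were lower than the sum of the single effects, and 7 were positive. The smallest P belonged to *Dpf1* (interaction -0.28 ± 0.067 (SE), adjusted P = 0.20). Without double-heterozygote replicate 6, 5 members and 3.09% of all genes passed, and without *Wapl* Δ/+ replicate 2, 2 members and 0.828% of all genes did. The interaction uses the same *WT* and single-mutant libraries as the comparisons above.

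Progenitor and neuronal BAF subunits were then compared. The 4 progenitor subunits had median log2 fold changes of 0.16 in *Nipbl* +/−, 0.063 in *Wapl* Δ/+ and 0.16 in double-heterozygote brains. For the 4 neuronal subunits these medians were 0.069, 0.027 and 0.021. Among progenitor subunits 3 passed in *Nipbl* +/−, 1 in *Wapl* Δ/+ and 2 in double-heterozygote brains. Of all tested genes 11.2%, 2.22% and 3.28% passed there. Of the 26 BAF genes, which include these subunits, 12, 1 and 4 were higher, so calls were not confined to the progenitor subunits. Among neuronal subunits only *Dpf1* passed, in *Nipbl* +/− brains. The *Nipbl* +/− calls of *Actl6a* and *Ss18* were each kept in 5 of 10 alternatives, and in 1 and 3 of the 8 fits without a library. Without *Nipbl* +/− replicate 1, or at an adjusted P of 0.05, 1 progenitor (*Dpf2*) and 1 neuronal subunit (*Dpf1*) passed.

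*Actl6a*, an actin-like progenitor subunit, had 802, 829, 836, 798 and 832 normalized counts in *WT*, 995, 806 and 994 in *Nipbl* +/− brains, and ran from 757 to 973 (median 849) in *Wapl* Δ/+ and from 834 to 1019 (median 918) in double-heterozygote brains. In *Nipbl* +/− brains replicate 2 fell into the *WT* range, and in double heterozygotes replicate 3 did. The log2 fold changes were 0.18 ± 0.06 (SE), adjusted P = 0.0849 in *Nipbl* +/−, and 0.19 ± 0.048 (SE), adjusted P = 0.0449 in double-heterozygote brains, with 0.061 (adjusted P = 0.67) in *Wapl* Δ/+ brains. Its neuronal counterpart *Actl6b* had 4882, 4426, 4621, 4765 and 4664 in *WT*, 4983, 4909 and 4976 in *Nipbl* +/− brains, and ran from 4468 to 4967 (median 4817) in *Wapl* Δ/+ and from 4544 to 5019 (median 4709.6) in double-heterozygote brains. All *Nipbl* +/− libraries lay above *WT*, by a small margin, and the gene did not pass (log2 fold change 0.079 (adjusted P = 0.225), 0.042 (adjusted P = 0.569) and 0.042 (adjusted P = 0.695) in the 3 groups in that order).

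*Ss18*, a progenitor subunit, had 1304, 1268, 1177, 1249 and 1361 in *WT* and 1506, 1313 and 1436 in *Nipbl* +/− brains. It ran from 1251 to 1488 (median 1298) in *Wapl* Δ/+ and from 1253 to 1584 (median 1426) in double-heterozygote brains. In the *WT* range lay 1 *Nipbl* +/− library (replicate 2) and 1 double-heterozygote library (replicate 5). Log2 fold changes were 0.15 (adjusted P = 0.0851), 0.065 (adjusted P = 0.524) and 0.17 (adjusted P = 0.0885) in *Nipbl* +/−, *Wapl* Δ/+ and double-heterozygote brains. *Ss18l1*, its neuronal counterpart, had 4311, 4072, 4205, 4464 and 4246 in *WT* and 4453, 4498 and 4410.2 in *Nipbl* +/− brains, and ran from 3944 to 4695 (median 4322) in *Wapl* Δ/+ and from 4003 to 4413 (median 4323) in double-heterozygote brains. The groups overlapped, and the log2 fold changes were 0.058 (adjusted P = 0.42), 0.012 (adjusted P = 0.914) and 0.014 (adjusted P = 0.922).

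Of the zinc finger subunits, *Dpf2* had 3007, 2699 and 2803 in *Nipbl* +/− brains, all above *WT*, and ran from 2394 to 2939 (median 2724) in double heterozygotes. Its log2 fold change was 0.20 ± 0.046 (SE), adjusted P = 0.0107 in *Nipbl* +/− and 0.15 (adjusted P = 0.135) in double-heterozygote brains, where replicates 3 and 5 fell into the *WT* range. *Phf10*, the other progenitor subunit of this type, had 2271, 2102, 2047, 2071 and 2169 in *WT* and 2079, 2129 and 2117 in *Nipbl* +/− brains, and ran from 1952 to 2166 (median 2138) in *Wapl* Δ/+ and from 2054 to 2313 (median 2212) in double-heterozygote brains. The *WT* range covered most mutant libraries, and log2 fold changes were -0.022 (adjusted P = 0.831), -0.016 (adjusted P = 0.873) and 0.057 (adjusted P = 0.573).

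*Dpf1*, a neuronal subunit, had 4640.4, 4308, 4366, 4332 and 4309 in *WT* and 4949.6, 4993 and 4684 in *Nipbl* +/− brains, without overlap (log2 fold change 0.15 ± 0.037 (SE), adjusted P = 0.0214). It ran from 4328 to 5243 (median 4912) in *Wapl* Δ/+ (0.13, adjusted P = 0.147) and from 4209 to 4819.6 (median 4393) in double-heterozygote brains (0.028, adjusted P = 0.821), and both ranges overlapped with *WT*. *Dpf3*, the other neuronal zinc finger subunit, had 766, 827, 731, 749.9 and 824 in *WT* and 640.2, 673 and 893 in *Nipbl* +/− brains. In *Wapl* Δ/+ brains it had 670.5, 892, 460.1, 525, 207, 283 and 248 in replicates 1 to 7, and in double heterozygotes 799.6, 708, 782, 812, 685 and 300.3 in replicates 1 to 6. The 5 *Wapl* Δ/+ libraries with high *mt-Nd3* lay at 525 and below, as did double-heterozygote replicate 6, and every *WT* library was above 731, the high *mt-Nd3* ones included. With this spread *Dpf3* did not pass (log2 fold change -0.72 ± 0.23 (SE), adjusted P = 0.141 in *Wapl* Δ/+, -0.092 (adjusted P = 0.615) in *Nipbl* +/− and -0.18 (adjusted P = 0.669) in double-heterozygote brains). Its coefficient of variation was the largest of the 58 genes in each mutant group, at 53.3% in *Wapl* Δ/+, 28.4% in double-heterozygote and 18.7% in *Nipbl* +/− brains.

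**Figure D4:**
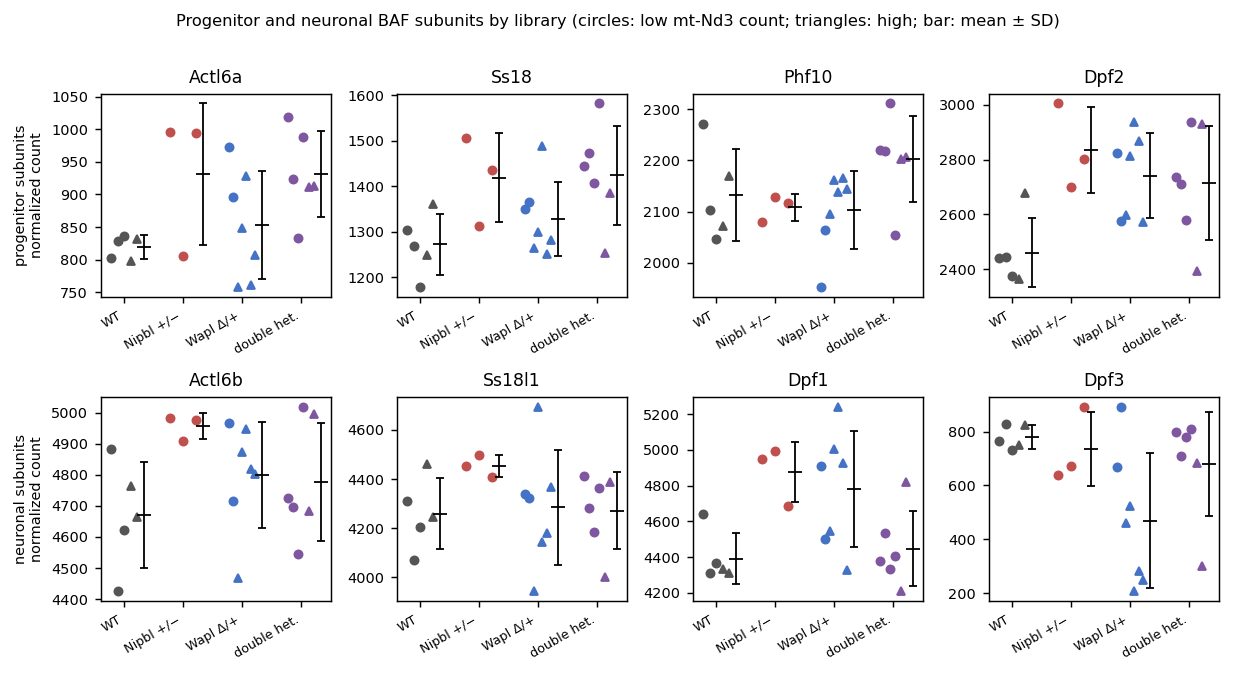
Normalized counts (y axes, not starting at 0) of the 4 progenitor (top) and 4 neuronal (bottom) BAF subunits in each of the 21 libraries by genotype (x axes), with circles for low and triangles for high *mt-Nd3* libraries and bars for the mean ± SD. *Actl6a* and *Ss18* are higher in most double-heterozygote libraries than in *WT*, and *Dpf3* falls to 207 in the lowest *Wapl* Δ/+ library.

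The balance of neuronal to progenitor subunits was measured in each library as a log2 ratio, in which library size cancels. For *Actl6b* over *Actl6a* it was 2.60, 2.42, 2.46, 2.58 and 2.49 in *WT* and 2.32, 2.61 and 2.32 in *Nipbl* +/− brains, and ran from 2.35 to 2.66 (median 2.52) in *Wapl* Δ/+ and from 2.21 to 2.45 (median 2.35) in double-heterozygote brains. For *Ss18l1* over *Ss18* it was 1.72, 1.68, 1.84, 1.84 and 1.64 in *WT* and 1.56, 1.78 and 1.62 in *Nipbl* +/− brains, and ran from 1.48 to 1.85 (median 1.68) in *Wapl* Δ/+ and from 1.46 to 1.68 (median 1.59) in double-heterozygote brains. For *Dpf1* and *Dpf3* over *Phf10* and *Dpf2* it was 0.20, 0.18, 0.20, 0.20 and 0.08 in *WT* and 0.14, 0.23 and 0.18 in *Nipbl* +/− brains, and ran from -0.043 to 0.23 (median 0.10) in *Wapl* Δ/+ and from -0.0044 to 0.09 (median 0.064) in double-heterozygote brains. In each of the 3 ratios the double heterozygotes had the lowest mean of the 4 groups, and their ranges overlapped with *WT*.

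Double heterozygotes had lower ratios than *WT*, with differences of -0.15 for *Actl6b* over *Actl6a* (mean 2.36 ± 0.088 against 2.51 ± 0.079, SD), -0.16 for *Ss18l1* over *Ss18* (1.59 ± 0.08 against 1.74 ± 0.089) and -0.11 for the zinc finger subunits (0.061 ± 0.035 against 0.17 ± 0.051), with n = 6 and 5. Two-sided exact permutation tests over the libraries gave P = 0.0173, 0.0152 and 0.00649. After Benjamini-Hochberg adjustment over the 9 ratios and groups, each had an exact permutation adjusted P of 0.0519, which is under the threshold of 0.10 used for the genes and above 0.05. In *Nipbl* +/− brains the differences were -0.092, -0.092 and 0.011 (exact permutation P = 0.339, 0.232 and 0.768, n = 3 and 5, with 0.0179 the smallest possible). In *Wapl* Δ/+ brains they were -0.014, -0.054 and -0.058 (exact permutation P = 0.816, 0.426 and 0.256). The 9 tests share *WT* libraries, and the ratios rest on the same counts as the gene-wise tests above. In the low *mt-Nd3* libraries alone (4 against 3) the 3 differences were -0.16, -0.20 and -0.12 with exact permutation adjusted P = 0.257, 0.129 and 0.129. For *Ss18l1* over *Ss18* and the zinc finger subunits, all of these double-heterozygote libraries lay below all of these *WT* libraries. Their unadjusted permutation P was therefore the smallest that 4 against 3 libraries allow. In the same double heterozygotes, log2 fold changes were positive for 9 of 12 progenitor markers (median 0.13, 5 at an unadjusted P below 0.05, 0 called) and for 3 of 12 neuron markers (median -0.049, 3 at an unadjusted P below 0.05, 1 called lower). Progenitor markers were positive for 10 of 12 in *Nipbl* +/− brains (median 0.11, 6 at an unadjusted P below 0.05, 3 called higher and 1 lower). In *Wapl* Δ/+ brains they were positive for 11 of 12 (median 0.12, 7 at that level, 0 called). Neuron markers were positive for 1 of 12 (median -0.10, 4 called lower) and 3 of 12 (median -0.024, 0 called) in these groups. The marker shifts were thus not particular to double heterozygotes, and their part in the ratios was not tested. Leaving out *WT* replicate 1 or 4 raised all 3 adjusted P to 0.114, and without *WT* replicate 3 that of *Ss18l1* over *Ss18* no longer passed.

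**Figure D5:**
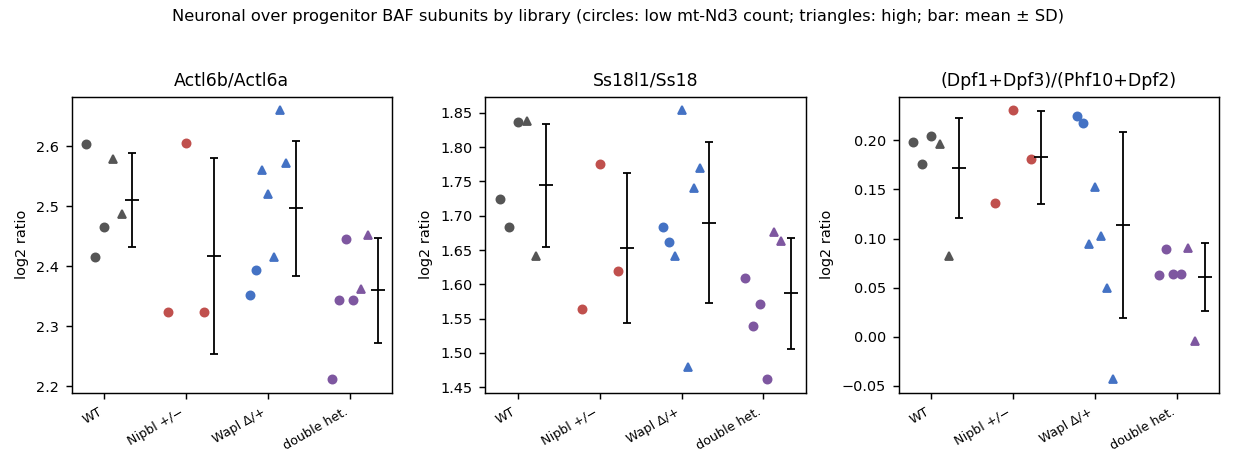
Log2 ratio of neuronal over progenitor BAF subunits (y axes, not starting at 0) for 3 subunit pairs in each of the 21 libraries by genotype (x axes), with circles for low and triangles for high *mt-Nd3* libraries and bars for the mean ± SD. Means of double heterozygotes (2.36, 1.59 and 0.061) lie below those of *WT* (2.51, 1.74 and 0.17), with overlapping libraries.

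A separate list of 45 further remodeller genes was read in the same fits. It holds further subunits of these complexes, such as histone deacetylases of NuRD and actin-related proteins of INO80, and also separate SNF2-type ATPases, such as *Hltf*, *Ttf2*, *Ercc6* and *Rad54l2*. Of these 45, 9 were higher and none lower in *Nipbl* +/− brains, among them *Bicra*, a subunit of the GLTSCR-type BAF complex (0.24, adjusted P = 0.0035), *Hdac1*, a deacetylase of NuRD (0.15, adjusted P = 0.0867), and *Epc1*, a scaffold of TIP60 (0.15, adjusted P = 0.0114). In *Wapl* Δ/+ brains 0 were higher and 1 was lower, the ATPase gene *Rad54l2* (-0.28, adjusted P = 0.0935). In double heterozygotes 3 were higher (*Yeats4*, *Epc1* and *Epc2*) and none was lower. Among all tested genes, 4.25% were higher and 6.96% lower in *Nipbl* +/− brains. These shares were 0.769% and 1.45% in *Wapl* Δ/+ and 0.812% and 2.46% in double-heterozygote brains, so a single call among 45 genes carries little weight. The medians of the 45 log2 fold changes were 0.043, 0.014 and 0.057 in the 3 groups.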

How the data were processed

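The table deposited by the authors holds raw counts per gene, without normalization. The submitters' processing notes name cutadapt 2.4, STAR 2.5.3a, featureCounts of Subread 1.6.4 and the build GRCm38.p6 (mm10). The annotation, the strand setting and the handling of multi-gene reads are not given in the sources used here. How reads of antisense partners or of similar paralogues were assigned is therefore not known. Groups were taken from the sample labels.

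The quasi-likelihood test of edgeR 4.0.16 (R 4.3.3) was run after TMM scaling on the libraries of the groups compared, and on all 21 for the interaction. Tested were genes whose normalized counts summed to 10 or more over all libraries, with Benjamini-Hochberg adjustment over all 30552 and a threshold of 0.10. Normalized counts were scaled to the mean effective library size. Ratios of BAF subunits used a pseudocount of 0.5 normalized counts and exact permutation tests.

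The 58 genes, their classes and the lists of other subunits and cell type markers were chosen with earlier results of these data known. Values by library are given for the 8 progenitor and neuronal BAF subunits, for members called in *Wapl* Δ/+ or double-heterozygote brains, and for the 2 members per class with the largest change among those called in *Nipbl* +/− brains. Alternatives were DESeq2 1.42.0, its size factors and upper-quartile scaling in edgeR, 2 other filters (none, and at least 1 CPM in at least 3 libraries), an adjusted P of 0.05, a joint fit of the 4 genotypes, a replicate block, a term for the *mt-Nd3* set (high from 20 counts), each *mt-Nd3* set alone, and leaving out each library. Gene spans and positions came from a RefSeq table for GRCm38.p6. The figures were drawn with matplotlib.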

Additional observations from a re-analysis of the deposited data

Results flagged for a closer look

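Values by library of the 19 genes described in detail, of *Nipbl* and *Wapl* and of the 3 ratios were screened in the groups of 5, 6 and 7 libraries for a single library whose gap to its neighbour was large relative to the range of the group (Dixon's criterion at 95%). Of 72 combinations of item and group, 10 stood out, and chance gives about 1 in 20.

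In *Wapl* Δ/+ brains, replicate 2 was high for *Chd8* (6023, against 4325 to 4669 in the others) and for *Ep400* (6647, against 4238 to 5077), and replicate 1 was low for *Atrx* (5108, against 6108 to 6647). In double heterozygotes, replicate 6 was low for *Dpf3* (300.3, against 685 to 812) and for the ratio of *Dpf1* and *Dpf3* to *Phf10* and *Dpf2* (-0.0044, against 0.063 to 0.090), which contains *Dpf3*. Replicate 5 of the same group was low for *Arid1a* (8244, against 10914 to 12415) and *Srcap* (6100.5, against 8329 to 9422). In *WT* brains, replicate 1 was high for *Dpf1* (4640.4, against 4309 to 4366), and replicate 5 was high for *Dpf2* (2677, against 2362 to 2444) and low for the ratio that holds *Dpf2* in its denominator (0.083, against 0.18 to 0.20). Counts are normalized counts and ratios are on the log2 scale.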

How the results depend on the processing

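Every gene had a mean of at least 237 normalized counts in *WT*, and the number of embryos, 3 to 7 a group, sets the precision. None of the 31 calls of a member changed sign under any alternative or without any library. Fold changes and ratios were scored as same if they kept their direction and side of the threshold. Counts of calls and medians were scored as same within a set fold of the main value, and otherwise as moved. A fall from 22 to 15 *Nipbl* +/− calls without *WT* replicate 2 was thus scored as same, as was 0 that stayed 0. Over the fold changes of these calls and the median of the 58 in each comparison with *WT*, 426 alternative values were the same. Of the others, 211 kept their direction but no longer passed, 11 moved and 0 reversed. Over the counts of calls and the ratios, 194 were the same, 10 no longer passed, 41 moved and 10 reversed, all 10 among the ratios.

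Shares of all genes that passed in the same fit are given in brackets. For *Nipbl* +/− against *WT*, 22 calls (11.2%) became 14 at a threshold of 0.05 (7.87%) and 8 in a joint fit of all 4 groups (5.43%). They became 12 with a term for the *mt-Nd3* set (7.94%) and 7 in low *mt-Nd3* libraries alone (6.16%). Without single libraries they ran from 9 to 22 (5.98% to 15.7%). For *Wapl* Δ/+ against *WT*, 5 calls (2.22%) became 0 at 0.05 (0.592%) and 0 in one fit (0.0229%). They became 1 with the *mt-Nd3* term (0.998%) and 0 in low *mt-Nd3* libraries alone (0.154%). Without single libraries they ran from 0 to 11 (0.0295% to 5.02%). For double heterozygotes against *WT*, 4 calls (3.28%) became 2 at 0.05 (1.79%) and 2 in one fit (1.97%). They became 0 in high *mt-Nd3* libraries alone (0.00327%) and ran from 0 to 13 without single libraries (1.49% to 8.20%). Against *Wapl* Δ/+, 0 calls (1.02%) became 2 with DESeq2 (1.64%), 1 with the CPM filter (2.07%) and 2 in one fit (1.89%). Without single libraries they ran from 0 to 7 (0.534% to 1.47%). Interaction calls ran from 0 to 5 without single libraries (0% to 3.09%). The low sets hold fewer samples. The cause of the other moves was not tested.

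Deviations from the group means correlated from -0.273 to 0.421 between same-numbered libraries, with 7 of 25 pairs above 0.1. The highest value was between *Nipbl* +/− and *Wapl* Δ/+ replicate 1. Double-heterozygote replicate 1 had 0.362 with the former and 0.318 with the latter. Differently numbered libraries were not correlated for comparison, so whether the numbers pair some samples could not be told. With a replicate block, member calls were 6 in *Nipbl* +/−, 18 in *Wapl* Δ/+ and 0 in double-heterozygote brains against *WT*, where 6.20%, 6.52% and 1.75% of all genes passed, and 0 in the other comparisons.

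For the ratios, *Actl6b* over *Actl6a* in *Wapl* Δ/+ brains was 0.034 with group medians in place of means, and ran from -0.041 to 0.010 without single libraries. The zinc finger ratio in *Nipbl* +/− brains was -0.016 with medians and -0.010 in low *mt-Nd3* libraries, and ran from -0.013 to 0.034. In *Wapl* Δ/+ brains it was 0.028 in low *mt-Nd3* libraries. For double heterozygotes, in low *mt-Nd3* libraries alone the 3 ratios were -0.158, -0.202 and -0.123 and no longer passed. For *Ss18l1* over *Ss18* and the zinc finger ratio, the unadjusted permutation P was there the smallest that the number of libraries allows. Without single libraries they ran from -0.173 to -0.120, from -0.183 to -0.133 and from -0.133 to -0.0977.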
